A study of Mus musculus with 8 samples.

Results

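The lymphatic endothelium genes described here are Lyve1, Prox1, Flt4, Pdpn, Reln, Mmrn1, Vegfc, Stab1 and Stab2, 9 genes of the 56748 in the deposited tables, taken by gene name. All 9 passed the filter on low counts, among 18495 genes that did. They were measured in whole skin taken from 8 male mice aged 35 weeks. Of these, 3 were NPY-tet mice, which carry NPY tet/tet on both copies (B6;129S4-Npytm2Rpa/J), and 5 were wild-type (NPY +/+) with no strain stated. Neither group was treated, the body site of the skin is not stated, and no tissue-specific driver is named for the allele. The list was chosen by biology and by a measured value, namely that Lyve1 was higher in every NPY-tet library than in every wild-type library. The NPY-tet against wild-type values of the members are therefore given as a description, and the few counts of calls among them carry no weight. Each library is 1 mouse.

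Lymphatic capillaries of the skin drain fluid, hyaluronan and migrating leukocytes from the dermis. Their endothelial cells are specified by the transcription factor PROX1, grow and survive through the receptor VEGFR-3 (encoded by Flt4) when it binds the ligand VEGF-C, and carry the hyaluronan receptor LYVE-1 on their surface. Several of these genes are not restricted to lymphatic vessels: subsets of dermal macrophages in mouse also express Lyve1 and Stab1, fibroblasts and activated keratinocytes express Pdpn, and Vegfc is a secreted signal made by several cell types. In a whole-tissue library fewer cells of a type and less RNA per cell cannot be told apart.

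Expression is given as CPM, the count of a gene scaled to library size. Group values are mean ± SD with n = 5 (wild-type) and n = 3 (NPY-tet). Total counts were 31370433 to 47495565 per library in wild-type and 32694123 to 35953372 in NPY-tet mice. Npy itself, which encodes neuropeptide Y, stood at 0.237 ± 0.148 CPM in wild-type (5 to 15 counts) and 308 ± 11.6 CPM in NPY-tet skin (10394 to 11864 counts). Its log2 fold change was 10.37 (SE 0.28, edgeR adjusted p = 3.60e-09), in the direction of the labels. The share of ribosomal RNA separated the libraries into sets that no label names. It took 6.54% to 8.13% of counts in 5 libraries (1 NPY-tet, replicate 1, and 4 wild-type) and 0.0398% to 0.0759% in 3 libraries (NPY-tet replicates 2 and 3 and wild-type replicate 4). These are called rRNA-rich and rRNA-poor below, and each holds a single mouse of one genotype. NPY-tet replicate 1 stood apart in other ways too: the summed level of 12 dermal fibroblast markers was 2918 CPM in it, 18513 and 26079 CPM in replicates 2 and 3, and 11074 to 24688 CPM in wild-type mice. The collagen genes Col1a1, Col1a2 and Col3a1 carried most of that sum, at 423, 508 and 353 CPM in replicate 1 against wild-type means of 5384, 4783 and 3377 CPM. The median log2 ratio of the 12 markers to the wild-type mean was -0.92 in that mouse, and Pdgfra (72.7 against 72.4 CPM) and Dcn (1002 against 1101 CPM) lay near it.

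The defining markers of lymphatic endothelium were all detected, at low levels. Per gene length, on the scale of the deposited FPKM, the order over the 8 libraries ran from Pdpn (mean 12.9) through Stab1 (7.70), Lyve1 (4.95), Mmrn1 (1.97), Flt4 (1.48), Vegfc (1.22), Stab2 (0.803) and Reln (0.638) to Prox1 (0.221). Prox1, the gene that defines the lineage, was thus the lowest, with 34 to 96 counts in wild-type and 45 to 137 counts in NPY-tet libraries. Neighbours in this order were compared within libraries by a two-sided exact sign-flip permutation test of the log2 difference, adjusted over the 8 pairs by the Benjamini-Hochberg method. Of these, 6 pairs were separated. Lyve1 stood above Mmrn1 by a log2 difference of 1.25 ± 0.45 (SD, 8 of 8 libraries, exact adjusted p = 0.0208) and Reln above Prox1 by 1.17 ± 0.25 (8 of 8, exact adjusted p = 0.0208). Stab1 stood above Lyve1 by 0.74 ± 0.78 in 7 of 8 libraries (exact adjusted p = 0.0417). That difference pools genotypes. Mean FPKM was 7.93 for Stab1 and 3.48 for Lyve1 in wild-type mice. In NPY-tet mice it was 7.31 and 7.41, with Lyve1 the higher in replicate 1 alone. For Lyve1 and Mmrn1 mean FPKM was 3.48 and 1.57 in wild-type and 7.41 and 2.64 in NPY-tet mice. Both pairs with Lyve1 include the NPY-tet values that chose the list, so their p-values carry no weight. The order itself was set on the same 8 libraries that were tested. It also rests on the deposited gene lengths: Reln, at 23738 bases, had a wild-type mean of 13.2 CPM, against 10.3 CPM for Lyve1. Flt4 and Vegfc, the receptor and its ligand, were not separated (0.27 ± 0.36, higher in 5 of 8, exact adjusted p = 0.0982), nor were Stab2 and Reln (0.28 ± 0.42, 6 of 8, exact adjusted p = 0.125). With any 1 library left out, 3 or 4 of the 8 pairs were separated, with no change in the sign of a mean difference.

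**Figure D1:**
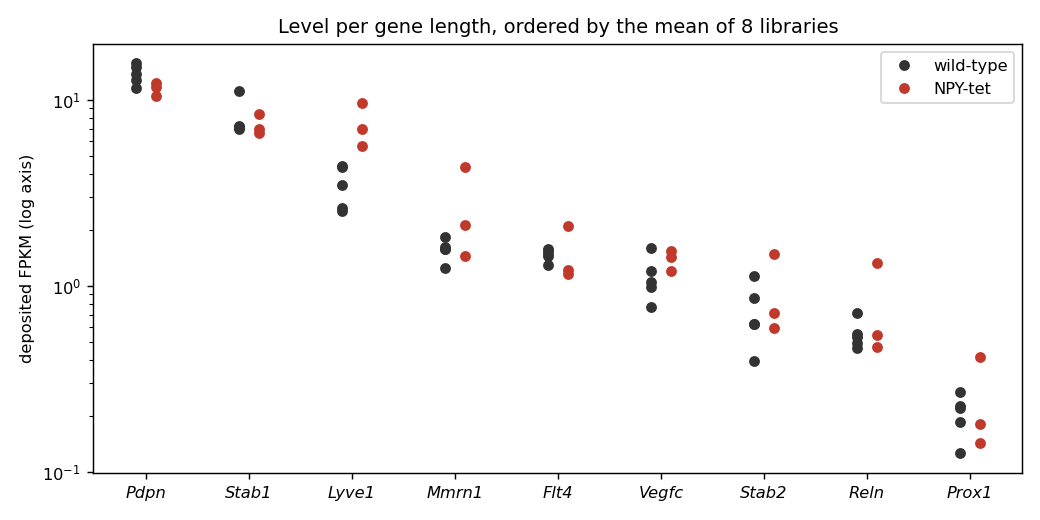
Deposited FPKM (log axis) of the 9 genes in each of 5 wild-type (black) and 3 NPY-tet (red) libraries, ordered by the mean over 8 libraries. Pdpn is the highest, at a mean of 12.9, and Prox1 the lowest, at 0.221.

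Lyve1 encodes the lymphatic vessel endothelial hyaluronan receptor and lies on the minus strand of chromosome 7 at 110449814 to 110462446 (mm39; ENSMUSG00000030787). It stood at 7.83, 13.1, 10.3, 7.42 and 12.7 CPM in wild-type replicates 1 to 5 and at 28.5, 16.7 and 20.5 CPM in NPY-tet replicates 1 to 3. The lowest NPY-tet library was above the highest wild-type library, which is the value that led to the list. The group means were 10.3 ± 2.64 and 21.9 ± 6.03 CPM, and the fitted log2 fold change of NPY-tet over wild-type was 1.09 (SE 0.23). It was 1.40 (SE 0.27) within the rRNA-rich libraries, 1.31 (SE 0.35) within the rRNA-poor ones and 0.86 (SE 0.24) without NPY-tet replicate 1. Among the 9 members Lyve1 was the only gene whose groups did not overlap, against 1.81% of all tested genes that lay higher in NPY-tet mice without overlap. Since that property chose the list, nothing is read from it.

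**Figure D2:**
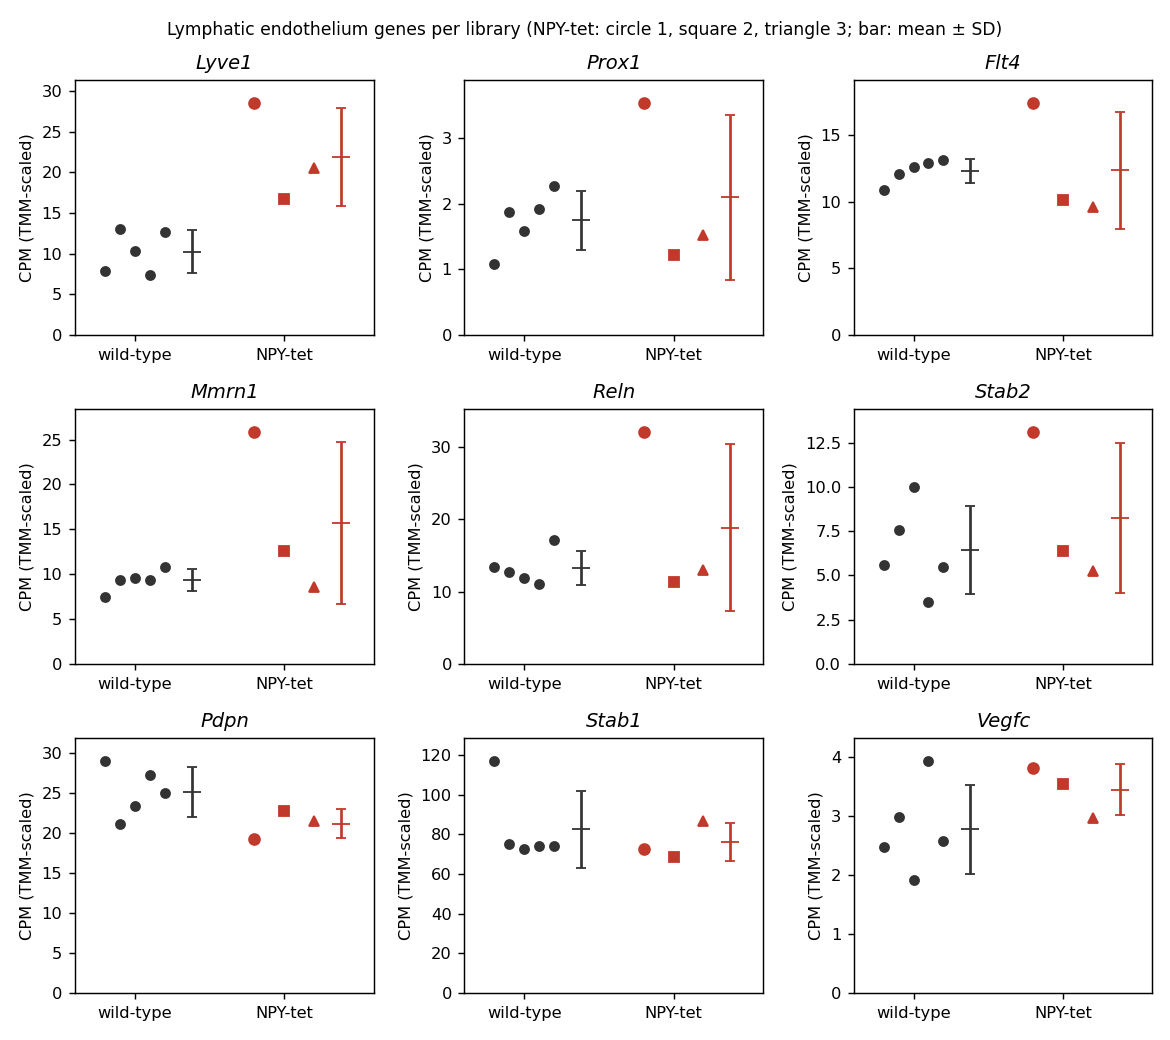
CPM of each gene in each library, for wild-type replicates 1 to 5 from left to right (black) and NPY-tet replicates 1 to 3 (red circle, square and triangle), with the mean ± SD beside each group. Lyve1 is above the wild-type range in all 3 NPY-tet libraries, whereas in Prox1, Flt4, Reln and Stab2 only replicate 1 is.

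Prox1, the homeobox factor that sets lymphatic identity (chromosome 1, 189850232 to 189902911, minus strand), stood at 1.08, 1.87, 1.58, 1.92 and 2.27 CPM in wild-type and at 3.53, 1.22 and 1.53 CPM in NPY-tet replicates 1 to 3. Replicate 1 lay above every wild-type mouse and the other NPY-tet mice lay inside the wild-type range. Flt4, the VEGF-C receptor (chromosome 11, 49500090 to 49543566, plus strand), stood at 10.9, 12.1, 12.6, 12.9 and 13.1 CPM in wild-type, the narrowest spread of the members (a coefficient of variation of 7.14%). In NPY-tet mice it stood at 17.4, 10.1 and 9.57 CPM, so replicate 1 was above and the others were below the whole wild-type range. The log2 fold changes were 0.26 (SE 0.39) for Prox1 and 0.0050 (SE 0.20) for Flt4. Without NPY-tet replicate 1 they were -0.34 (SE 0.39) and -0.32 (SE 0.17), and within the rRNA-poor libraries -0.49 (SE 0.68) and -0.41 (SE 0.35), against 1.07 (SE 0.48) and 0.54 (SE 0.23) within the rRNA-rich ones.

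Mmrn1 encodes multimerin 1, a secreted protein of platelets and endothelium that is enriched in lymphatic vessels. It stood at 7.48, 9.37, 9.62, 9.36 and 10.8 CPM in wild-type and at 25.9, 12.6 and 8.62 CPM in NPY-tet mice. Replicates 1 and 2 were above and replicate 3 was inside the wild-type range. The log2 fold change was 0.75 (SE 0.29), and 0.19 (SE 0.21) without NPY-tet replicate 1. Mmrn1 lies on chromosome 6 at 60901960 to 60966362, plus strand, the chromosome of Npy, at a distance of 11.1 Mb. Reln encodes reelin, a large extracellular matrix protein that lymphatic endothelium secretes (chromosome 5, 22089452 to 22549700, minus strand). Its levels were 13.4, 12.7, 11.9, 11.1 and 17.1 CPM in wild-type and 32.1, 11.3 and 13.004 CPM in NPY-tet mice, again with replicate 1 alone outside the wild-type range. The log2 fold change was 0.51 (SE 0.31), and -0.12 (SE 0.20) without that mouse. Within the rRNA-rich libraries Mmrn1 was at 1.49 (SE 0.24) and Reln at 1.24 (SE 0.23), and within the rRNA-poor ones at 0.17 (SE 0.37) and 0.12 (SE 0.35).

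NPY-tet replicate 1 was 2.78-fold the wild-type mean for Lyve1, 2.77-fold for Mmrn1, 2.42-fold for Reln, 2.03-fold for Stab2, 2.02-fold for Prox1 and 1.41-fold for Flt4. In 6 of the 9 members it was the highest of the 8 libraries, against 18.2% of all tested genes. Replicates 2 and 3 were 1.63-fold and 2.00-fold the wild-type mean for Lyve1, and 0.699-fold to 1.35-fold for the other members that were highest in replicate 1. Over the 9 members the median log2 fold change was 0.31, with 7 fitted higher and 2 lower, beside a median of 0.0041 and 50.7% fitted higher over all tested genes. Without NPY-tet replicate 1 the median was -0.12, with 3 higher and 6 lower.

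**Figure D3:**
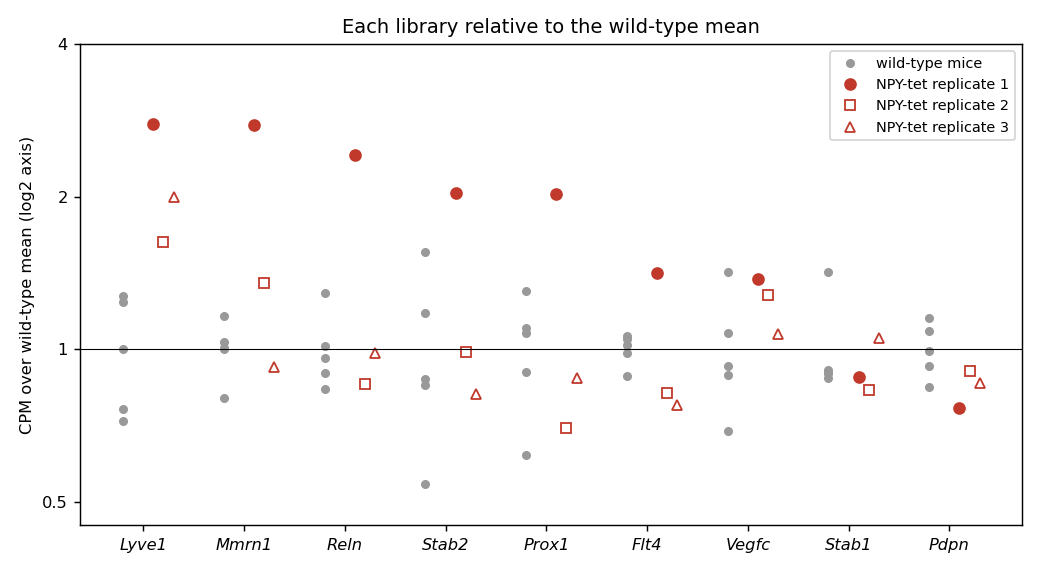
CPM of each library divided by the wild-type mean of the gene (log2 axis), with grey points for 5 wild-type mice, a filled red circle for NPY-tet replicate 1 and an open square and triangle for replicates 2 and 3. Replicate 1 reaches 2.78 for Lyve1, 2.77 for Mmrn1 and 2.42 for Reln, and 0.764 for Pdpn.

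The genes that were highest in NPY-tet replicate 1 differ widely in the base composition of their promoters, and the windows of Mmrn1, Reln and Flt4 are shown for that difference. They are given 5′ to 3′ on the strand of the gene, from 250 bases before to 50 bases after the annotated start (RefSeq, build GRCm38.p6), with CpG dinucleotides in capitals. The intervals are chr6:60944067-60944366 on the plus strand, chr5:22344656-22344955 on the minus strand and chr11:49609429-49609728 on the plus strand.
Mmrn1: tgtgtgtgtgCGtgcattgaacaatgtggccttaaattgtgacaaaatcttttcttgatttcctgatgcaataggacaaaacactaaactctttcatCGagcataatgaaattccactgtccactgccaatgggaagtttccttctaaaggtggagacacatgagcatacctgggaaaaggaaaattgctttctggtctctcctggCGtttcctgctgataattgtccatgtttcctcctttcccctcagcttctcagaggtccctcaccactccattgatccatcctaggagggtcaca
Reln: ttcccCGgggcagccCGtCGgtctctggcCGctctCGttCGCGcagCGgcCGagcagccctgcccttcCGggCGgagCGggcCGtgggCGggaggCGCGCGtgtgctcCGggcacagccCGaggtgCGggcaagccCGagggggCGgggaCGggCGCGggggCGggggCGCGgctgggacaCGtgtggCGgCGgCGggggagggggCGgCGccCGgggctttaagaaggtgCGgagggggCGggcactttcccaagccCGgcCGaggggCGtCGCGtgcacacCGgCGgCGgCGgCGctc
Flt4: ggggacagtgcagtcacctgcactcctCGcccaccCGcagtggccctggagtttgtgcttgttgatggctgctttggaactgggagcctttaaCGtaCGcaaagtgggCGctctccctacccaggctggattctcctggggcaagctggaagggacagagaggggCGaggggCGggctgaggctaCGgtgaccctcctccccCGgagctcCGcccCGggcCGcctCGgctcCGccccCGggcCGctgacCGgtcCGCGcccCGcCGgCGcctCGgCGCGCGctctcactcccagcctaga
The Mmrn1 window holds 3 CpG dinucleotides at 44.3% GC, the Reln window 47 at 80.7% and the Flt4 window 26 at 70.3%, where the median of all windows is 7. Of all windows, 1.46% hold at least as many CpG dinucleotides as that of Reln. The letters ACAAT, a core of SOX factor motifs, occur 3 times in the Mmrn1 window on either strand and in neither of the others, and 30.8% of all windows hold them. The letters CAGGAA, a core of ETS factor motifs, occur 2 times in the Mmrn1 window and in neither of the others, and 30.5% of all windows hold them. Of the 9 members 8 had a window, Lyve1 being the one without.

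The stabilins are large scavenger receptors of sinusoidal endothelium, of which STAB2 takes up hyaluronan and STAB1 is also made by alternatively activated macrophages. Stab2 (chromosome 10, 86677062 to 86843889, minus strand) stood at 5.61, 7.60, 10.02, 3.50 and 5.48 CPM in wild-type and at 13.1, 6.37 and 5.25 CPM in NPY-tet mice, the widest wild-type spread among the members (a coefficient of variation of 38.4%). Its log2 fold change was 0.36 (SE 0.36), and -0.14 (SE 0.34) without NPY-tet replicate 1, which was again the highest library. Stab1 (chromosome 14, 30860970 to 30890598, minus strand) was not high in that mouse. It stood at 117, 75.0, 72.4, 74.3 and 74.2 CPM in wild-type and at 72.8, 68.7 and 86.8 CPM in NPY-tet mice, with wild-type replicate 1 as the highest library. Its log2 fold change was -0.12 (SE 0.17). At the end of Stab1, 112 bases overlap Nt5dc2 on the other strand (505 to 1175 counts per library), and these libraries carry no strand, so reads of that stretch cannot be told apart.

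Pdpn encodes podoplanin, a membrane glycoprotein of lymphatic endothelium that binds CLEC-2 on platelets (chromosome 4, 142994001 to 143026134, minus strand). It stood at 29.1, 21.2, 23.3, 27.3 and 24.98 CPM in wild-type and at 19.2, 22.8 and 21.6 CPM in NPY-tet mice, with a log2 fold change of -0.25 (SE 0.14). Replicate 1, the highest for the lymphatic markers above, was the lowest of the 8 libraries for Pdpn. The same mouse had the lowest sum of fibroblast markers, a cell type that also expresses Pdpn, and the part of that difference was not tested. Of the 12 fibroblast markers 10 were fitted lower in NPY-tet mice and none was called, and none was at 0 in every library. Basal keratinocyte markers summed to 9262 to 14203 CPM in wild-type and 9470 to 12853 CPM in NPY-tet mice, with 7 of 9 fitted higher and none called.

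Vegfc, the ligand of VEGFR-3 (chromosome 8, 54530641 to 54640131, plus strand), stood at 2.47, 2.99, 1.91, 3.94 and 2.57 CPM in wild-type and at 3.81, 3.55 and 2.97 CPM in NPY-tet mice. The groups overlapped, and wild-type replicate 4 was the highest library. The log2 fold change was 0.31 (SE 0.27), 0.64 (SE 0.41) within the rRNA-rich and -0.29 (SE 0.52) within the rRNA-poor libraries.

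By edgeR's quasi-likelihood test with Benjamini-Hochberg adjustment over the 18495 genes, 0 of the 9 members were called, and 0.00541% of all genes were (Npy alone). At an unadjusted p under 0.05 there were 2 members and 5.98% of all genes. By DESeq2 1 member was called, Lyve1, and 0.188% of the genes with a p-value. Without the filter on low counts edgeR called Lyve1 as well, and 0.0647% of all genes. The rule used this contrast, so these counts are not evidence about the members.

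**Figure D4:**
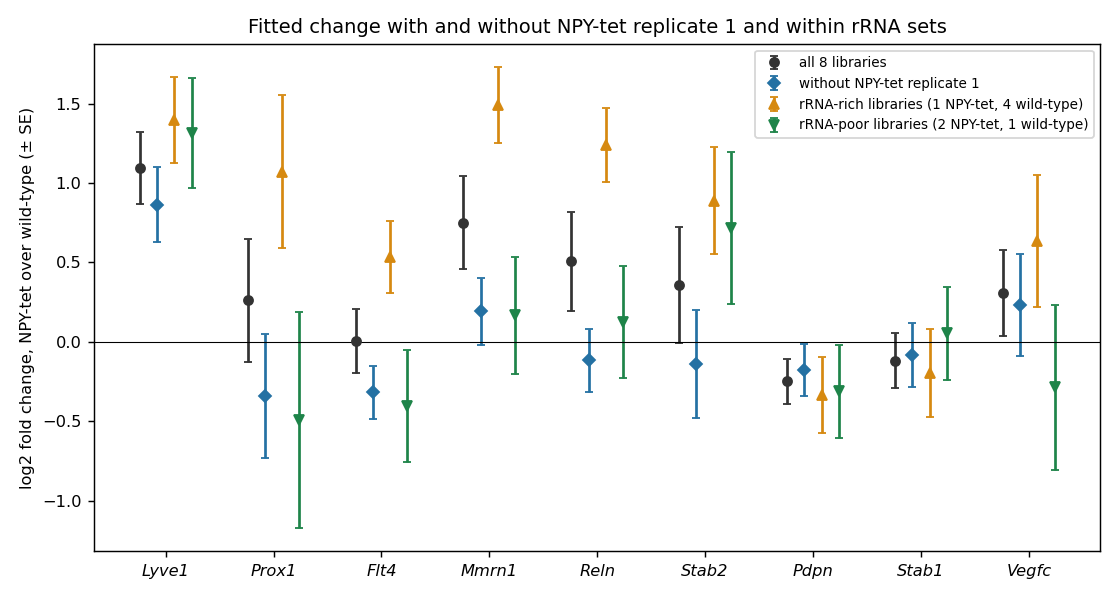
Fitted log2 fold change of NPY-tet over wild-type (± SE) for each gene, with all 8 libraries, with NPY-tet replicate 1 left out, and inside each of the rRNA-rich and rRNA-poor sets. Lyve1 lies between 0.86 and 1.40 in these 4 fits, with a sign largely set by the rule that chose it. Prox1 runs from -0.49 to 1.07 and Flt4 from -0.41 to 0.54.

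Ratios to Flt4 within a library were computed for the members. The Flt4 means lay close together (12.3 ± 0.880 and 12.4 ± 4.38 CPM), but with replicate 1 above and replicates 2 and 3 below the whole wild-type range. Lyve1 over Flt4 was 0.718, 1.08, 0.819, 0.573 and 0.969 in wild-type and 1.64, 1.65 and 2.14 in NPY-tet mice. Lyve1 over Prox1 was 3.86 to 7.26 in wild-type and 8.08, 13.7 and 13.4 in NPY-tet mice. Mmrn1 over Flt4 was 0.686 to 0.827 in wild-type and 1.49, 1.25 and 0.901 in NPY-tet mice. In replicate 3 Mmrn1 itself lay inside the wild-type range and Flt4 below it. Since Lyve1 was chosen for lying higher in every NPY-tet mouse, the separation of its ratios to Flt4 and Prox1 is largely set by that choice, and nothing is read from it. Ratios of Prox1, Reln, Stab1, Stab2, Vegfc and Pdpn to Flt4 overlapped between the groups. For scale, 1.52% of all tested genes had a ratio to Flt4 that was higher in every NPY-tet mouse and 0.546% one that was lower. The ratios were chosen after the values were seen, and 4 of the 11 computed did not overlap.

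The fourth ratio without overlap went the other way. Ccl21a encodes the chemokine by which lymphatic endothelium draws dendritic cells and T cells into the vessels. It stood at 39.2, 44.1, 43.9, 50.5 and 51.4 CPM in wild-type and at 25.4, 30.8 and 18.6 CPM in NPY-tet mice, so every NPY-tet mouse was lower. Its log2 fold change was -0.88 (SE 0.17), with an adjusted p of 0.346 by edgeR and a call by DESeq2 (adjusted p = 0.00375). Ccl21a over Flt4 was 3.50 to 3.92 in wild-type and 1.46, 3.05 and 1.94 in NPY-tet mice, with the lowest value in replicate 1, the mouse with the most Flt4, Prox1 and Lyve1. Near-identical copies of Ccl21a exist in mouse, and of the copies listed Ccl21b had 0 counts in all libraries, so how the reads were shared among them is uncertain.

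**Figure D5:**
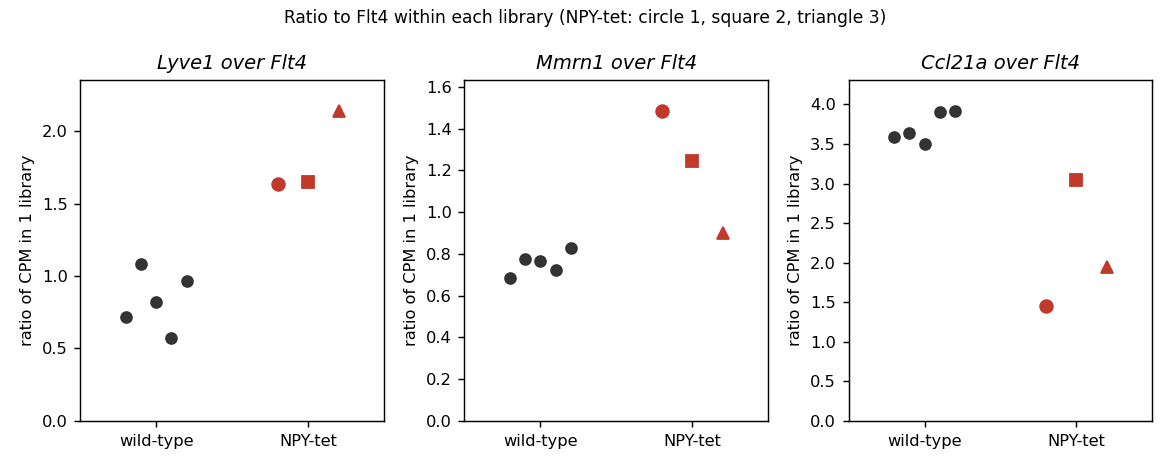
Ratio of the CPM of Lyve1, Mmrn1 and Ccl21a to that of Flt4 in each library, for 5 wild-type (black) and 3 NPY-tet mice (red circle, square and triangle for replicates 1 to 3). Lyve1 over Flt4 is at most 1.08 in wild-type and at least 1.64 in NPY-tet mice, and Ccl21a over Flt4 is at least 3.50 and at most 3.05.

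The other listed markers of skin lymphatic endothelium, Ccl21a included, showed no common direction. Of 14 listed, 10 could be tested, with 6 fitted higher, 4 lower and a median log2 fold change of 0.039. By edgeR none was called. By DESeq2 Ccl21a alone was, beside 0.188% of all genes with a p-value. Sema3d, a guidance molecule, stood at 39.8 ± 6.89 and 30.8 ± 2.90 CPM (log2 fold change -0.37, SE 0.16, edgeR adjusted p = 0.795) and Fgl2, a secreted fibrinogen-like protein, at 42.3 ± 6.12 and 54.9 ± 22.7 CPM, with 81.0 CPM in NPY-tet replicate 1 (edgeR adjusted p = 0.798). The scavenging chemokine receptor gene Ackr4 was close in the groups, at 44.2 and 47.2 CPM. Nts, Ccl21b, Ccl21d and Madcam1 did not pass the filter on low counts.

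A further list of 17 genes held VEGF ligands, VEGF receptors and related genes, not all of which act through VEGFR-3. None was called by edgeR or DESeq2, with 11 fitted higher, 6 lower and a median of 0.032. Vegfd, which encodes VEGF-D, the other ligand of VEGFR-3, stood at 22.6, 24.1, 24.3, 25.05 and 23.3 CPM in wild-type and at 19.6, 17.5 and 21.7 CPM in NPY-tet mice. All NPY-tet mice were lower than all wild-type mice, as were 1.98% of all tested genes, and the log2 fold change of -0.28 (SE 0.12) had an edgeR adjusted p of 0.795. Vegfa, the main growth factor of blood vessels, stood at 67.1 ± 11.02 and 92.9 ± 47.6 CPM, where the NPY-tet mean rested on replicate 1 at 148 CPM against 70.1 and 61.2 CPM in the others (edgeR adjusted p = 0.796). Vegfb was at 83.0 ± 12.9 and 64.3 ± 7.93 CPM (edgeR adjusted p = 0.795). The genes whose products process VEGF-C, Ccbe1 and Adamts3, stood at 6.88 and 7.64 CPM and at 0.310 and 0.318 CPM. The receptor Kdr was at 30.9 and 34.4 CPM and the co-receptor Nrp2 at 47.8 and 44.0 CPM.

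Of 28 genes of lymphatic fate, valves and junctions none was called, with 12 fitted higher, 16 lower and a median of -0.037. Adm, which encodes adrenomedullin, a peptide needed for lymphatic growth, had the smallest p of this list. It stood at 3.71, 4.48, 2.75, 6.62 and 3.61 CPM in wild-type and at 16.9, 9.54 and 5.13 CPM in NPY-tet mice, with a log2 fold change of 1.31 (SE 0.36) and an adjusted p of 0.594 by edgeR. Replicate 1 was again the highest and replicate 3 lay within the wild-type range. Its receptor genes Calcrl (11.5 and 12.7 CPM) and Ramp2 (43.9 and 33.0 CPM) were not called. Sox18 and Nr2f2, the factors that switch on Prox1 in the embryo, stood at 21.5 and 20.1 CPM and at 9.96 and 9.55 CPM. Foxc2, the valve regulator, was at 4.17 CPM in NPY-tet replicate 1, against 1.36 and 1.30 CPM in replicates 2 and 3 and 1.34 to 3.18 CPM in wild-type mice. In this list 7 of 28 genes were highest in NPY-tet replicate 1.

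Of 16 hyaluronan genes 14 could be tested and none was called, with 5 fitted higher, 9 lower and a median of -0.10. Has2, the main hyaluronan synthase of dermis, was at 2.78 ± 0.704 and 2.04 ± 0.373 CPM (edgeR adjusted p = 0.808), and Hyal1, a lysosomal hyaluronidase, at 10.4 ± 0.484 and 12.7 ± 2.00 CPM (edgeR adjusted p = 0.796). Cd44, the widespread hyaluronan receptor related to LYVE-1, was at 78.8 and 82.5 CPM.

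As a sum, blood endothelial markers were not high in NPY-tet replicate 1, though single genes were. The 20 markers summed to 946 CPM in that mouse, 803 and 1191 CPM in replicates 2 and 3 and 859 to 1196 CPM in wild-type mice, with 6 fitted higher, 14 lower, none called and none at 0. Cdh5, the endothelial cadherin, stood at 69.1 ± 10.5 and 52.8 ± 11.7 CPM (edgeR adjusted p = 0.795). In replicate 1 the median log2 ratio to the wild-type mean was 1.03 over the 9 lymphatic endothelium genes. It was 0.052 over the other lymphatic markers, of which 1 of 10 was highest in that mouse. Over the VEGF ligand and receptor list it was 0.058, and over the fate and valve genes 0.14. It was -0.056 over blood endothelial markers and -0.31 over dermal macrophage markers. Larger shifts down were -1.22 over skeletal muscle, -1.03 over adipocyte and -0.92 over fibroblast markers. The remaining lists lay between -0.16 and 0.24.

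Dermal macrophages, the other cell type that can express Lyve1, had mostly lower values in NPY-tet mice. The 24 markers summed to 2327 to 2984 CPM in wild-type and to 2198, 1719 and 2416 CPM in NPY-tet mice, with 21 fitted lower, 3 higher, none called by edgeR and none at 0 in every library. Folr2, a folate receptor of resident macrophages, was the DESeq2 call of the list (12.5 ± 1.94 and 6.15 ± 2.66 CPM, DESeq2 adjusted p = 0.0294, edgeR adjusted p = 0.535). Mrc1, the mannose receptor, stood at 76.4 and 63.1 CPM. Cd163, the haemoglobin scavenger receptor, stood at 36.8, 64.2, 50.6, 52.0 and 82.3 CPM in wild-type and at 116, 69.5 and 97.3 CPM in NPY-tet mice, with a log2 fold change of 0.72 (SE 0.24) and an edgeR adjusted p of 0.727. Its order among NPY-tet mice was that of Lyve1, but so was the order of Cd68, Lyz2 and Mrc1, which were fitted lower. Lyve1 over Cd163 was 0.143 to 0.213 in wild-type and 0.246, 0.240 and 0.211 in NPY-tet mice, with an overlap. The part of macrophages in the Lyve1 values was not tested. Among the remaining lists, 8 of 8 adipocyte, 7 of 8 skeletal muscle, 8 of 9 Schwann cell and 3 of 8 pericyte and smooth muscle markers were fitted lower in NPY-tet mice, and none was called.

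Among 13635 named genes outside the list with a mean of at least 1 CPM, likeness to a member was measured as the root-mean-square difference of log2 CPM, centred and scaled over the 8 libraries. The closest to Lyve1 were Hbegf (0.33), Fbxo28 (0.34), Zfp850 (0.34), Pkd2 (0.35) and Cecr2 (0.37). Hbegf, an EGF receptor ligand, stood at 2.90 to 6.29 CPM in wild-type and 8.96, 5.45 and 6.40 CPM in NPY-tet mice. The closest to Prox1 were Zfp655 (0.23), Fcho2 (0.27), Hpgd (0.28), Atxn7 (0.28) and Txnip (0.29), and to Flt4 Klf10 (0.27), Fli1 (0.27), Igf2bp2 (0.28), Acvr2a (0.29) and Vnn1 (0.30). None of these 15 genes is on a lymphatic list used here. Those lists hold few of the 13635 genes, so nothing is read from that. Fli1, an ETS factor of endothelium and blood cells, stood at 7.96 to 9.93 CPM in wild-type and 11.5, 7.07 and 7.58 CPM in NPY-tet mice. Among the members themselves the closest pair was Prox1 with Flt4 (0.46), followed by Reln with Mmrn1 (0.53) and Prox1 with Reln (0.59).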

How the data were processed

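Poly-A selected RNA of whole skin was sequenced as non-directional libraries, per the labels' protocols. The authors deposited raw counts for each Ensembl gene, in 1 column per mouse. Their deposited FPKM behave as these counts over gene length and a library constant. HISAT2 2.0.5, featureCounts 1.5.0-p3, DESeq2 1.20.0, CASAVA and build mm39 are named per the submitters' processing notes, without roles. Columns were joined to mice by the mouse numbers of the sample titles. Library names in the descriptions run higher by 1 from the third mouse on, with the same genotype.

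Counts were fitted with edgeR 4.0.16 in R 4.3.3: filterByExpr (18495 genes), TMM factors, robust quasi-likelihood dispersion, genotype as the only term, and Benjamini-Hochberg adjustment with a threshold of 0.05. SE was taken from the F statistic (log2 fold change over its square root). The common coefficient of variation was 0.318. Depth sets only the counting error. The pseudocount for log2 FPKM was 0.1 and the prior count for log2 CPM 2. Alternatives were other factors, filters, DESeq2 1.42.0, limma 3.58.1 on counts and FPKM, a replicate block, the rRNA set (boundary 1% of counts) and each library left out. The procedures were tested on simulated data. Members, lists and alternatives were chosen with earlier results of these data known. From each list the text names genes called by edgeR or DESeq2 and examples from up to 4 with the smallest p at a mean of at least 1 CPM. Ackr4, Ccbe1, Adamts3, Kdr, Nrp2, Calcrl, Ramp2, Sox18, Nr2f2, Foxc2, Cd44 and Mrc1 were named outside this rule, after their values were seen. The same holds for Cldn5, Flt1, Col1a1, Col1a2, Col3a1, Pdgfra and Dcn.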

Additional observations from a re-analysis of the deposited data

Results flagged for a closer look

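In the 5 wild-type mice the values of 59 genes (the members and the genes that the naming rule selected) were searched for a single library far from the rest, and 2 were found. Chance alone flags about 1 in 20 such groups. Stab1 stood at 117.2 CPM in wild-type replicate 1, against 72.4 to 75.0 CPM in the other 4 mice. Erbb3, a neuregulin receptor listed as a Schwann cell marker, stood at 81.2 CPM in wild-type replicate 3, against 126 to 136 CPM in the others. With 3 mice the NPY-tet group was too small for this search, so the distance of NPY-tet replicate 1 from the others carries no such flag.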

How the results depend on the processing

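The Lyve1 log2 fold change lay between 0.86 and 1.40 over 22 alternative settings. Its sign is largely set by the choice of Lyve1 as higher in every NPY-tet mouse, so nothing is read from it. That of Mmrn1 lay between 0.17 and 1.49, always above 0. Pdpn was below 0 in all 22. Flt4 ran from -0.41 to 0.54 and Prox1 from -0.49 to 1.07. The median over members (0.31) was 0.46 with total counts alone, where the median of all genes was 0.17, 0.20 by limma-voom, 0.15 on log2(FPKM + 1), 0.89 inside the rRNA-rich set and 0.054 inside the rRNA-poor set. With each library left out it ran from -0.12 (without NPY-tet replicate 1) to 0.52 (without NPY-tet replicate 2).

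The count of called genes (1) was 2 with total counts alone and on either FPKM scale, 3 by limma-voom, 11 with the rRNA set as a model term, 21 without a filter, 61 by DESeq2, 332 in the rRNA-rich libraries and 227 in the rRNA-poor libraries. In those subsets 1 genotype is a single mouse, assumed to vary like the other, so their calls say little of the genotypes. With each library left out it was 1 to 8, the latter without NPY-tet replicate 3. Of the 8 neighbouring pairs in the order of levels, 6 were separated with all libraries, 3 to 4 with each library left out, 4 on CPM per kilobase and 0 in the 5 wild-type mice, where no p under 0.0625 is possible.

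With the replicate number as a block, 2 genes were called, the median over members was 0.34 and Lyve1 was at 1.06. The correlations gave no clear sign that the numbers pair the mice. Same-numbered mice had correlations of -0.0439, -0.1055 and 0.2976 across genes, and not every mouse correlated best with its own number. The value of 0.2976 was the highest of any pair compared, so so few mice cannot settle the question.

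Leaving out NPY-tet replicate 1 turned the sign for Prox1, Flt4, Reln and Stab2, and Prox1 rests on 34 to 137 counts per library.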
